A study of Mus musculus with 8 samples.

Results

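The 9 genes described here sense double-stranded RNA or answer to interferon: Ifih1, Ddx58, Oas1a, Stat2, Irf7, Isg15, Ifit1, Ifit3 and Usp18. They were chosen by symbol, and all 9 of the 18584 genes listed at any age had a value in every library. Whole testis RNA was sequenced from male mice that carry an endogenous retrovirus (IAP) insertion in the methyltransferase gene Dnmt3C, on a hybrid strain background of C3H/HeJ and C57BL/6J. Homozygotes (IAP/IAP, called mutants) were set against heterozygotes (IAP/WT, called controls), so the controls carry the insertion on 1 allele and no library without it was used. There was 1 library per genotype at 16.5 days post coitum (dpc), 1 per genotype at 10 days post partum (dpp) and 2 per genotype at 20 dpp, 8 in all. Whether the 2 libraries of a genotype stem from different animals is not stated in the labels, and the p-values speak only for the spread among libraries. Reads on Dnmt3C were not analysed here, so the targeted gene gave no check of the genotype labels. The question taken up is how these genes stand beside the retrotransposon reads that were higher in mutants at 10 and 20 dpp.

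Cells detect double-stranded RNA in the cytoplasm with helicases, of which RIG-I (encoded by Ddx58) binds RNA ends and MDA5 (encoded by Ifih1) coats longer duplexes. Both signal through the mitochondrial adaptor MAVS to interferon regulatory factors, which switch on type I interferon. Interferon binds its receptor, and a complex that holds STAT2 and IRF9 then enters the nucleus and binds the interferon-stimulated response element in front of many antiviral genes. The sensors themselves are among those genes, so the circuit feeds back on itself. Transcripts of retrotransposons can form duplex RNA, and such transcripts have been described as triggers of this circuit in other settings where DNA methylation is lost.

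The promoters are shown first, because the response element is what these genes are known to share. They were chosen as genes of sensing and interferon response, so how often it is found among them is not independent of the choice. Of the 9 genes, 8 matched a promoter window in RefSeq (GRCm38.p6), each 300 bases long and running from 250 before to 50 after a gene start, and Usp18 did not match. The core searched was GAAANNGAAA on both strands. It was present in 7 of the 8 genes' windows and in 3.43% of all 32817 windows in the table. The exception was Irf7. Below are the stretches of 5 genes whose match lies before the start, on the gene's strand, with the matched bases in capitals.
Oas1a, chr5:120907526-120907570, minus strand: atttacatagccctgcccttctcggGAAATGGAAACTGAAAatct
Isg15, chr4:156200850-156200921, minus strand: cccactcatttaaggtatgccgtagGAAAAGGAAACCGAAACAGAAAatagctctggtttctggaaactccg
Ifit1, chr19:34640760-34640838, plus strand: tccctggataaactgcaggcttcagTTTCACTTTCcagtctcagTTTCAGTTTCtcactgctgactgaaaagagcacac
Ifit3, chr19:34583348-34583441, plus strand: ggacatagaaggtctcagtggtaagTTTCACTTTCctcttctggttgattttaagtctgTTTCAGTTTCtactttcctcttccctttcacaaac
Stat2, chr10:128270251-128270310, plus strand: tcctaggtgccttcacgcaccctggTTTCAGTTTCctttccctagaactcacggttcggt
Oas1a held 2 overlapping matches, the last of them 5 bases before the start. Isg15 held 3 overlapping matches between 78 and 57 bases before the start. In Ifit1 and Ifit3 there were 2 matches each on the opposite strand, and in Stat2 there was 1, between 222 and 213 bases before the start. Ifih1 and Ddx58 had 1 match each, just after the start. The gamma-activated site, searched as TTCNNNGAA, was found in 1 of the 8 genes' windows, that of Oas1a, and in 8.29% of all windows. A match is a description of the letters and not a measured binding site.

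Values are normalised reads, that is read counts divided by the authors' library factor, which was set within each age. Levels are therefore compared between genotypes within an age. Reads on genes ran from 57166311 to 155742823 per library. At 20 dpp genes of late meiosis and of spermatids were far lower in the mutants, with all 13 measured markers of pachytene and later spermatocytes lower (median log2 change -6.30) and all 11 of spermatids lower (median -5.99). Markers of spermatogonia and Sertoli cells were mostly higher, 13 of 17 (median 0.97) and 16 of 20 (median 0.90). Of 10 Leydig cell markers 1 was higher (median 0.51). Of 12 markers of peritubular myoid and endothelial cells 5 were higher and 1 lower (median 0.78). In whole testis fewer cells of a type and less RNA per cell cannot be told apart.

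At 20 dpp the mutants had more reads on all 9 genes on the deposited scale, and 6 of the 9 rose past an adjusted p of 0.05 in limma's moderated test. These were Oas1a, Usp18, Irf7, Ddx58, Ifih1 and Stat2. None of the 9 was lower, adjusted or not. In the same test 26.4% of all 17194 genes were higher and 33.1% were lower. The median log2 change of the 9 genes was 0.97, beside 0.05 over all genes and 0.81 over 59 markers of spermatogonia and somatic cells other than leukocytes. The mutant and control libraries did not overlap for 8 of the 9 genes with the mutants above, a pattern met by 41.2% of all genes.

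**Figure D1:**
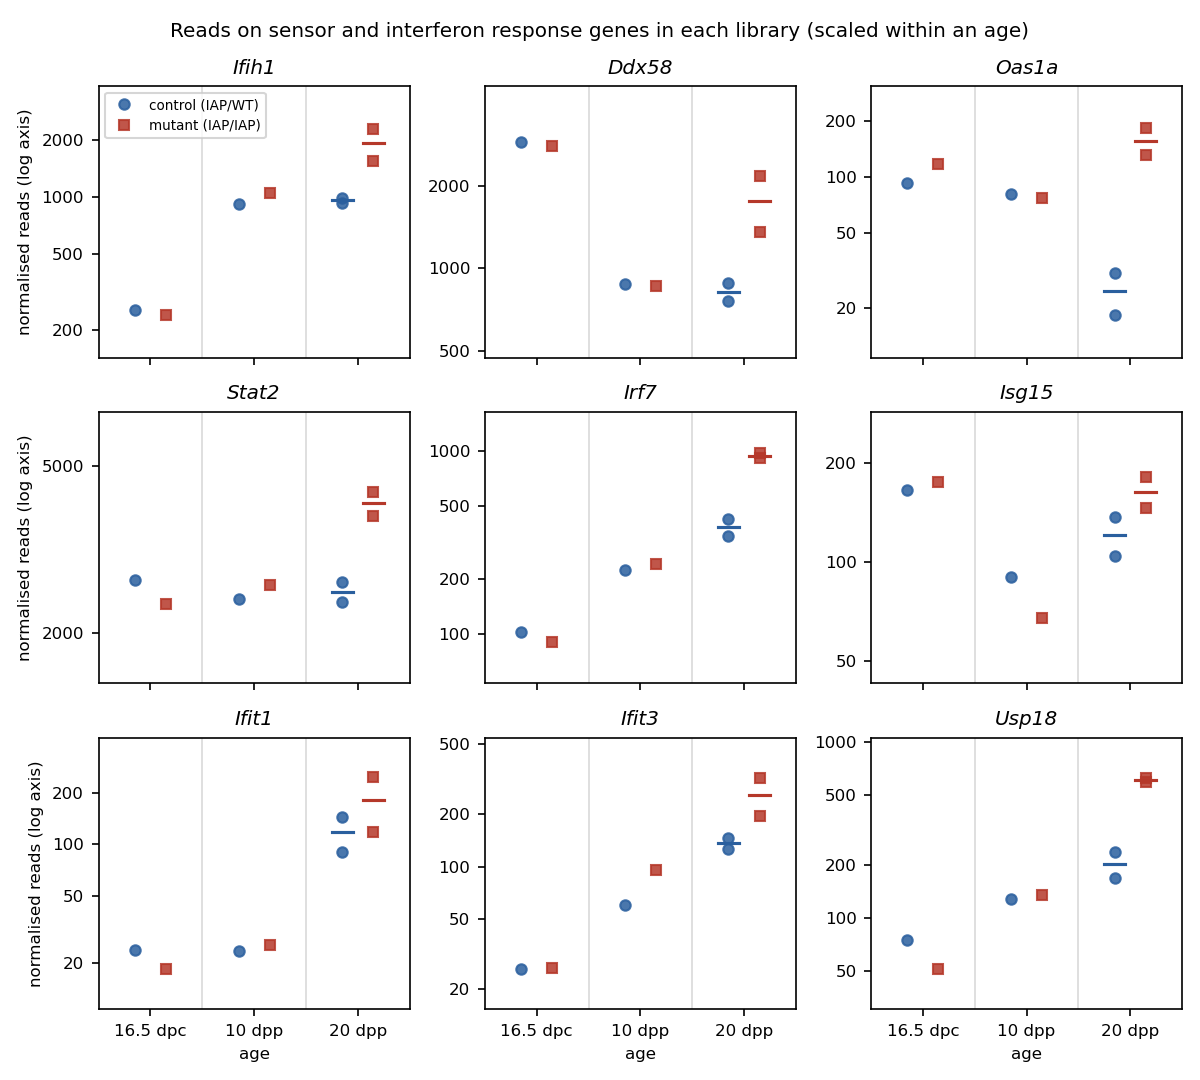
Normalised reads (log axis) of each of the 9 genes in the 8 libraries, by age; blue circles are control libraries, red squares are mutant libraries and short lines are the means of the 2 libraries per genotype at 20 dpp. At 20 dpp both mutant squares lie above both control circles for every gene but Ifit1, while at 16.5 dpc and 10 dpp neither genotype is above the other throughout, and the ratios run from 0.689 for Usp18 at 16.5 dpc to 1.58 for Ifit3 at 10 dpp.

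Among the sensors, Oas1a encodes an oligoadenylate synthetase that makes the messenger molecule of RNase L when it meets double-stranded RNA. The gene lies at chr5:120896256-120907521 on the minus strand (GRCm38, the build also called mm10, GENCODE M21, as for the positions that follow). It had 130.4 and 182.3 normalised reads in the 2 mutant libraries at 20 dpp, against 30.7 and 18.2 in the controls. Both mutants stood above both controls by a wide margin. The log2 change was 2.65 ± 0.52 (SE, n = 2 and 2, adjusted p = 0.0036), or 6.29-fold, which was higher than that of 99.8% of all genes. Oas1a belongs to a family of related genes that may share reads with it. Of these, Oas1b (log2 change 1.11) and Oas1c (1.24) rose too, and Oas1g had a change of 1.85 that did not pass (adjusted p = 0.063).

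Ddx58 (chr4:40203773-40239828, minus strand) had 1354 and 2173 normalised reads in mutant libraries and 759.7 and 885.0 in the controls. Its log2 change was 1.06 ± 0.28 (SE, adjusted p = 0.0130). Replicate 2 of the mutants was 1.60-fold above replicate 1, and the call was lost when either mutant replicate 2 (adjusted p = 0.0722) or control replicate 1 (0.0524) was left out. Ifih1 (chr2:62595798-62646255, minus strand) had 1551 and 2279 normalised reads in mutant libraries and 990.9 and 924.9 in the controls. Here the log2 change was 0.97 ± 0.24 (SE, adjusted p = 0.0112), and it missed the threshold without mutant replicate 2 (adjusted p = 0.0642). For both helicases the groups were separate, and the mutant libraries differed from each other more than the control libraries did.

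Of the transcription factors, Irf7 is the regulator that amplifies type I interferon expression once it has been induced. Irf7 (chr7:141262706-141266481, minus strand) had 971.6 and 917.2 normalised reads in mutant libraries and 342.7 and 424.7 in the controls, with a log2 change of 1.30 ± 0.27 (SE, adjusted p = 0.0046). The 2 mutant libraries lay within 1.06-fold of each other, well above both controls. Stat2 (chr10:128270559-128292849, plus strand), which brings the activation domain to the interferon-activated complex, had 4343 and 3811 normalised reads in mutant libraries and 2376 and 2652 in the controls. It had the highest level per kilobase of the 9 and the smallest change among those that passed, 0.70 ± 0.16 (SE, adjusted p = 0.0077).

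The 3 effectors did not pass. Isg15 (chr4:156199424-156200818, minus strand) encodes a ubiquitin-like protein that is attached to other proteins in infected cells. It counted 146.0 and 182.3 normalised reads in mutant libraries against 137.4 and 104.0 in control libraries, and the log2 change of 0.45 ± 0.40 (SE, adjusted p = 0.370) has a 95% interval from -0.50 to 1.40. Mutant replicate 1 lay just above control replicate 1. Ifit1 and Ifit3 encode antiviral proteins, of which IFIT1 binds foreign RNA caps. Ifit3 (chr19:34583531-34588731, plus strand) had 195.2 and 320.2 normalised reads in mutant libraries and 145.5 and 126.6 in the controls, with a change of 0.88 ± 0.41 (SE, adjusted p = 0.0988, interval from -0.08 to 1.83). The groups were separate, but the mutant libraries differed 1.64-fold. Its close copy Ifit3b, which may share reads with it, had a change of 1.17 (adjusted p = 0.11).

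Ifit1 (chr19:34640871-34650009, plus strand) had 118.2 and 248.3 normalised reads in mutant libraries and 90.5 and 144.8 in the controls. This was the gene whose groups overlapped, with mutant replicate 1 below control replicate 2. Its change was 0.58 ± 0.50 (SE, adjusted p = 0.352, interval from -0.61 to 1.76). These intervals hold both no change and a rise of more than 2-fold, so the 3 effectors are not shown to have stayed level.

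The restraint in the set, Usp18, encodes the protease that strips ISG15 from proteins and also blocks the type I interferon receptor. Usp18 (chr6:121245906-121270917, plus strand) had 622.5 and 595.0 normalised reads in mutant libraries and 169.7 and 236.6 in the controls. The mutant libraries were within 1.05-fold of each other. The change of 1.60 ± 0.32 (SE, adjusted p = 0.0044), or 3.03-fold, came second to that of Oas1a.

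Of the 59 markers of spermatogonia and somatic cells other than leukocytes, 35 were higher and 4 lower. Each gene was therefore also set against the mean log2 level of 20 markers of Sertoli cells, the somatic nurse cells of the tubule. Of these 20 markers 2 fell (lowest change -2.06), so this scale takes off less than their median change of 0.90. On that scale the median of all genes moved to -0.57, and the share of genes called higher fell to 3.75%. Oas1a alone of the 9 remained called, with a change of 2.04 ± 0.57 (SE, adjusted p = 0.0091). Usp18 was at 0.98 (adjusted p = 0.0518, 95% interval from 0.14 to 1.81) and Irf7 at 0.68 (0.115, interval from -0.05 to 1.41). The other sensors and factors were closer to the Sertoli cell markers, with Ddx58 at 0.44, Ifih1 at 0.35 and Stat2 at 0.07 (interval from -0.45 to 0.60). Among the effectors Ifit3 was at 0.26, while Isg15 at -0.17 and Ifit1 at -0.04 changed sign.

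On 2 scales chosen after the data were seen, both Oas1a and Usp18 passed. Against 17 spermatogonia markers Oas1a was at 1.98 (adjusted p = 0.0119) and Usp18 at 0.92 (0.0425), beside 4.05% of all genes called higher. Against 23 leukocyte markers they were at 2.34 (0.0022) and 1.28 (0.0196), beside 5.62% of all genes. These marker means, too, include markers that fell, 1 for spermatogonia (lowest change -2.35) and 2 for leukocytes (lowest -3.09). The other 7 genes did not pass on either scale. Scaled by total gene reads instead, 8 of the 9 passed, beside 49.0% of all genes called higher and with the median of all genes at 0.64. The part that cell composition has in the changes of the 9 genes was not tested beyond these scales.

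**Figure D2:**
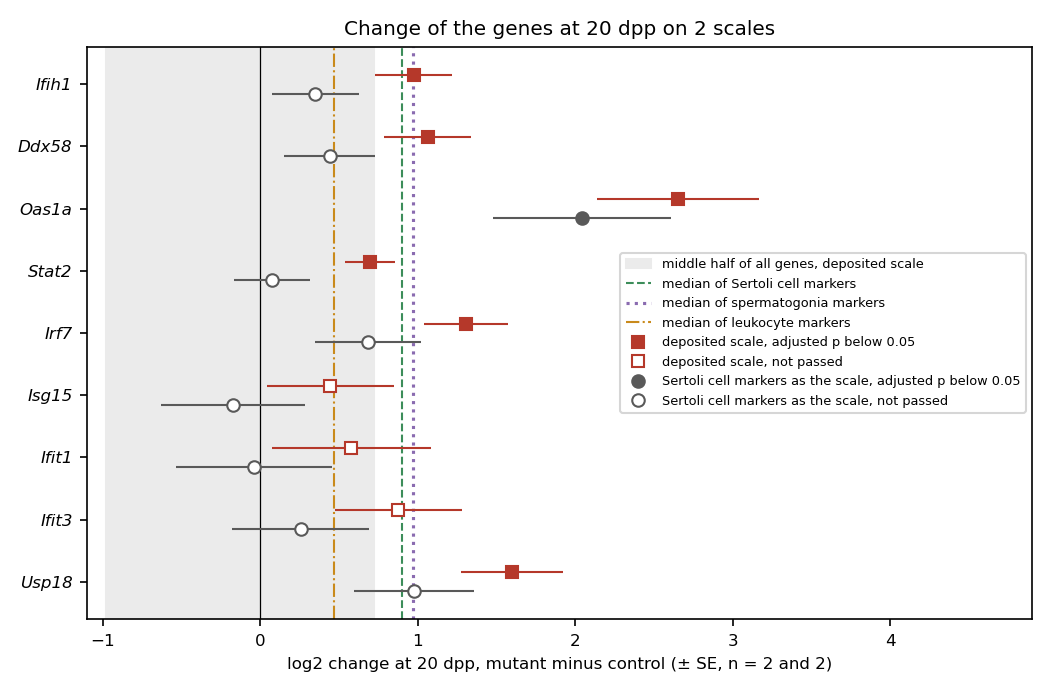
Log2 change at 20 dpp (mutant minus control, bars are SE, 2 libraries per genotype) of each gene on the deposited scale (red squares) and with Sertoli cell markers as the scale (grey circles); filled symbols have an adjusted p below 0.05, the grey band runs from the 25th to the 75th percentile of all genes and broken lines are medians of marker lists on the deposited scale. Oas1a is filled on both scales, while Ddx58, Ifih1 and Stat2 move from near or below the marker medians to between 0.07 and 0.44.

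Leukocytes express many of these genes strongly, so their markers are given beside the result. At 20 dpp the summed normalised reads of 23 leukocyte markers were 48770 and 45743 in mutant libraries and 30052 and 41750 in control libraries, higher in both mutants. That sum differed 1.39-fold between the 2 control libraries and 1.32-fold between the means of the genotypes. Of the 23 markers 7 rose and 2 fell (median 0.47), a share of rises near the 26.4% of all genes. Of all genes 33.1% were lower. The defining markers Ptprc (CD45, log2 change 0.47), Csf1r (0.47), Adgre1 (F4/80, 0.07) and Cd68 (0.91) did not pass, and none of the 23 was at 0. The 7 that rose were Fcer1g (1.20), Tyrobp (1.06), Laptm5 (0.96), C1qc (0.89), C1qb (0.83), Ctss (0.82) and Mrc1 (0.40), of which several are typical of macrophages. The 2 that fell were Aif1 (-3.09) and H2-Ab1 (-1.21). Their part in the changes of the 9 genes was not tested.

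At 10 dpp, where 1 library stood for each genotype, none of the 9 genes reached the rule used for single libraries. The rule asks for a ratio of at least 2-fold, a 95% counting interval that leaves out 1 and a sum of at least 50 reads over the pair of libraries. It listed 0.374% of all 17376 genes as higher in the mutant library and 0.512% as lower. Ifit3 had the largest ratio, 95.9 normalised reads in the mutant against 60.8 in the control, or 1.58 (interval from 1.13 to 2.21). The 2 libraries were close for Ifih1, with 1050 against 911.9 normalised reads and a ratio of 1.15 (1.05 to 1.26), and for Stat2, with 2601 against 2420 and a ratio of 1.07 (1.02 to 1.14). These 3 intervals lay above 1, as did those of 3517 of all 17376 genes. Such intervals cover counting error only and compare 2 libraries, not genotypes.

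For the genes that led at 20 dpp, the 10 dpp libraries were level. Oas1a had 77.5 normalised reads in the mutant and 81.4 in the control (ratio 0.952, interval from 0.688 to 1.32). Usp18 had 135.6 and 128.4 (ratio 1.06, from 0.823 to 1.35), and Irf7 had 239.7 and 224.5 (ratio 1.07, from 0.886 to 1.29). Ddx58 had 865.9 and 877.6 (ratio 0.987), Ifit1 had 25.5 and 23.5 (ratio 1.08, from 0.594 to 1.98), and Isg15 had 67.3 and 90.2 (ratio 0.746, from 0.536 to 1.03). For Oas1a, Usp18, Irf7, Ddx58, Ifih1, Stat2 and Isg15 the upper bound of the ratio was below the fold seen at 20 dpp. For Ifit1 and Ifit3 the upper bound was above that fold. These bounds cover counting error between single libraries only, and the spread of the 20 dpp fold is left out. The comparison is therefore no test of a difference between ages.

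The genotype difference at 20 dpp was then set against that at 10 dpp in a limma fit over the 8 libraries, in which the single 10 dpp libraries are assumed to vary like those at 20 dpp. Oas1a was the 1 gene of the 9 that passed, with a difference of 2.72 ± 0.83 (SE, adjusted p = 0.0409), beside 9.29% of 16282 genes with a higher change at 20 dpp. That call was lost without control replicate 2 (adjusted p = 0.0643), without mutant replicate 2 (0.0757) and with Sertoli cell markers as the scale (0.114). Usp18 was at 1.52 (adjusted p = 0.103, 95% interval from 0.05 to 2.99), Irf7 at 1.21 (0.120, from -0.03 to 2.45) and Ddx58 at 1.08 (0.0989, from 0.05 to 2.11). The other 5 genes ran from 0.23 for Ifit3 to 0.86 for Isg15.

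At 16.5 dpc, when germ cells are arrested before birth, none of the 9 was listed either, with 0.497% of 17709 genes higher and 0.237% lower in the mutant library. Oas1a had 117.6 normalised reads in the mutant and 92.3 in the control (ratio 1.27, interval from 0.960 to 1.70). The intervals of 2 genes lay below 1, that of Usp18 (51.8 against 75.2, ratio 0.689, from 0.476 to 0.993) and that of Stat2 (2356 against 2673, ratio 0.881, from 0.833 to 0.932). The same held for 3561 of all 17709 genes. The remaining 6 genes had ratios from 0.770 for Ifit1 (18.4 against 23.9 normalised reads) to 1.06 for Isg15 (175.5 against 166.4). Irf7 had 90.4 in the mutant and 102.5 in the control, and Ifit3 had 26.3 and 26.2. Ddx58, with 2795 and 2875 normalised reads, and Ifih1, with 239.6 and 252.9, differed little between the 2 libraries.

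Retrotransposon families are given beside the genes. LINE-1 elements such as L1Md_T, L1Md_A and L1Md_Gf and the retrovirus-like IAPEz-int and MMERVK10C-int are young families whose copies can still be transcribed. The 15 families named for this purpose were chosen with earlier results of these data known, so their counts are no test. Of them 8 were listed as higher in the mutant library at 10 dpp, among 13 so listed of all 823 families (1.58%). None of the 15 was listed at 16.5 dpc, beside 0.124% of 806. At 10 dpp MMERVK10C-int had a ratio of 4.37, IAPEz-int of 3.44, L1Md_A of 2.57 and L1Md_Gf of 2.24, while ETnERV-int was at 0.944. In the same libraries the ratios of the 9 genes ran from 0.746 for Isg15 to 1.58 for Ifit3. Those of Oas1a, Usp18, Irf7 and Ddx58 were between 0.952 and 1.07. At 20 dpp 42 of 888 families rose (4.73%) and 64 fell. L1Md_T rose by a log2 change of 3.10 (adjusted p = 5.0e-04), L1Md_Gf by 3.10 (4.1e-04), L1Md_A by 2.81 (0.044) and MMERVK10C-int by 2.22 (0.0052), while IAPEz-int was at 1.61 and did not pass (0.077). Families and genes are drawn from the same libraries, and which family RNA, if any, bears on the 9 genes was not tested.

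**Figure D3:**
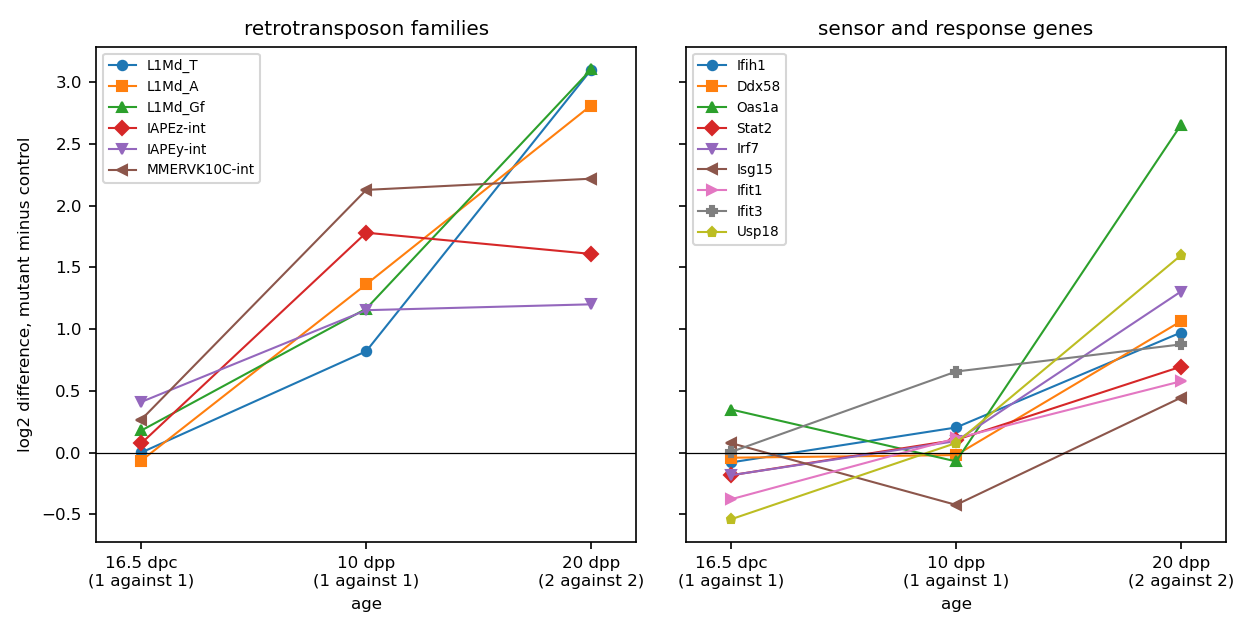
Log2 difference between mutant and control (vertical axis) at each age for 6 retrotransposon families (left) and the 9 genes (right); points at 16.5 dpc and 10 dpp compare 1 library with 1 library and points at 20 dpp are limma estimates from 2 and 2. The 6 families drawn, of the 15 named, are at 0.82 or more at 10 dpp, whereas every gene but Ifit3 lies between -0.42 and 0.20 there. Of the named families not drawn, IAPLTR1_Mm, IAPLTR2_Mm and RLTR10C are at 1.13 or more at 10 dpp. The others not drawn are between -0.08 and 0.32, and the median of all 823 families is -0.002.

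The 2 mutant libraries at 20 dpp differed in which families were high. L1Md_A had 614653 normalised reads in replicate 1 and 102652 in replicate 2, a difference of 5.99-fold. L1Md_T was 1.69-fold higher in replicate 1, whereas IAPEz-int was 3.40-fold and MMERVK10C-int 2.15-fold higher in replicate 2. In all, 6 of the 9 genes were higher in replicate 2, by between 1.25-fold for Isg15 and 2.10-fold for Ifit1. The other 3, Usp18, Irf7 and Stat2, were between 1.05-fold and 1.14-fold higher in replicate 1. Between the 2 control libraries the 9 genes differed by 1.07-fold for Ifih1 to 1.69-fold for Oas1a. The share of all genes higher in mutant replicate 2 is not given here, so the count of 6 is no result about these genes. With 2 mutant libraries no relation between family reads and these genes can be tested.

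The rest of the pathway was read from lists of sensors, adaptors, receptors, factors, effectors and restraints. Of its 109 genes outside the 9, 58 rose, 11 fell and 40 did not pass at 20 dpp, with a median log2 change of 0.80, beside the 26.4% higher and 33.1% lower of all genes. The median is close to the 0.81 of the spermatogonia and somatic markers. With Sertoli cell markers as the scale 8 of the 109 were called higher and 16 lower, beside 3.75% and 44.8% of all genes. With total gene reads 89 were called higher, beside 49.0% of all genes. At 10 dpp 1 of the 109 was listed, Ifit3b at 2.43 (interval from 1.29 to 4.78), and the median log2 ratio was -0.03. At 16.5 dpc Zbp1, a sensor of Z-form nucleic acid, was the 1 gene listed, lower at a ratio of 0.4996.

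Of 17 further sensors 5 rose and 2 fell at 20 dpp, a share of rises near the 26.4% of all genes. Oas2, a synthetase like Oas1a, rose by 2.23 ± 0.32 (SE, adjusted p = 9.0e-04), from 141.7 ± 21.4 normalised reads in controls to 663.3 ± 49.2 in mutants (mean ± SD, n = 2 each). In the opposite direction, Dhx58, which encodes the third helicase of the family, LGP2, fell by 4.17 (adjusted p = 4.0e-06), from 7382 ± 1125 to 405.8 ± 23.8. Mb21d1, the gene of the DNA sensor cGAS, fell by 1.60. On the deposited scale the helicase genes of the family thus went apart, Ddx58 and Ifih1 up and Dhx58 down. On the Sertoli cell marker scale neither of the first pair passed. Dhx58 had a ratio of 0.943 at 10 dpp, and at 20 dpp markers of pachytene and later spermatocytes fell as well (median -6.30). The part of cell composition in the fall of Dhx58 was not tested.

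Adaptor and receptor genes had list medians of 0.79 and 0.83, beside the 0.81 of the spermatogonia and somatic markers. Of 12 adaptors and kinases of sensing 8 rose and 1 fell, with the E3 ligase gene Rnf135 at 1.30, Prkra at 0.98 and the adaptor gene Mavs at 0.80, while the Toll-like receptor adaptor Myd88 fell by 1.68. Of 9 receptor and kinase genes 8 rose and 1 did not pass, among the first Il10rb at 1.32, the kinase Jak2 at 1.14 and Ifngr2 at 0.83. The 9 interferon genes of a further list were not analysed here. Among 10 further transcription factors 6 rose and 1 fell. Irf9, the DNA-binding partner of STAT2, rose by 1.56 ± 0.16 (SE, adjusted p = 1.8e-04), and Irf1 rose by 1.29, while Irf3, the factor that acts just below MAVS, fell by 1.08.

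Of 49 further effectors 27 rose and 3 fell. Xaf1, a pro-apoptotic interferon-induced gene, rose by 1.83, and Epsti1 fell by 3.94 and Herc6 by 2.40. The antiviral GTPase gene Mx1, often used as a readout of interferon, was at 0.05 ± 0.42 (SE) and did not pass. Of 12 further restraints 4 rose and 4 fell. Adar, the editing enzyme that keeps self duplex RNA from MDA5, rose by 1.18, whereas Rnaseh2a, a subunit of the enzyme that removes RNA paired with DNA, fell by 3.33, the exosome helicase gene Skiv2l by 1.79 and Pias1 by 1.29. These counts of restraints are near the shares of all genes, 26.4% higher and 33.1% lower.

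**Figure D4:**
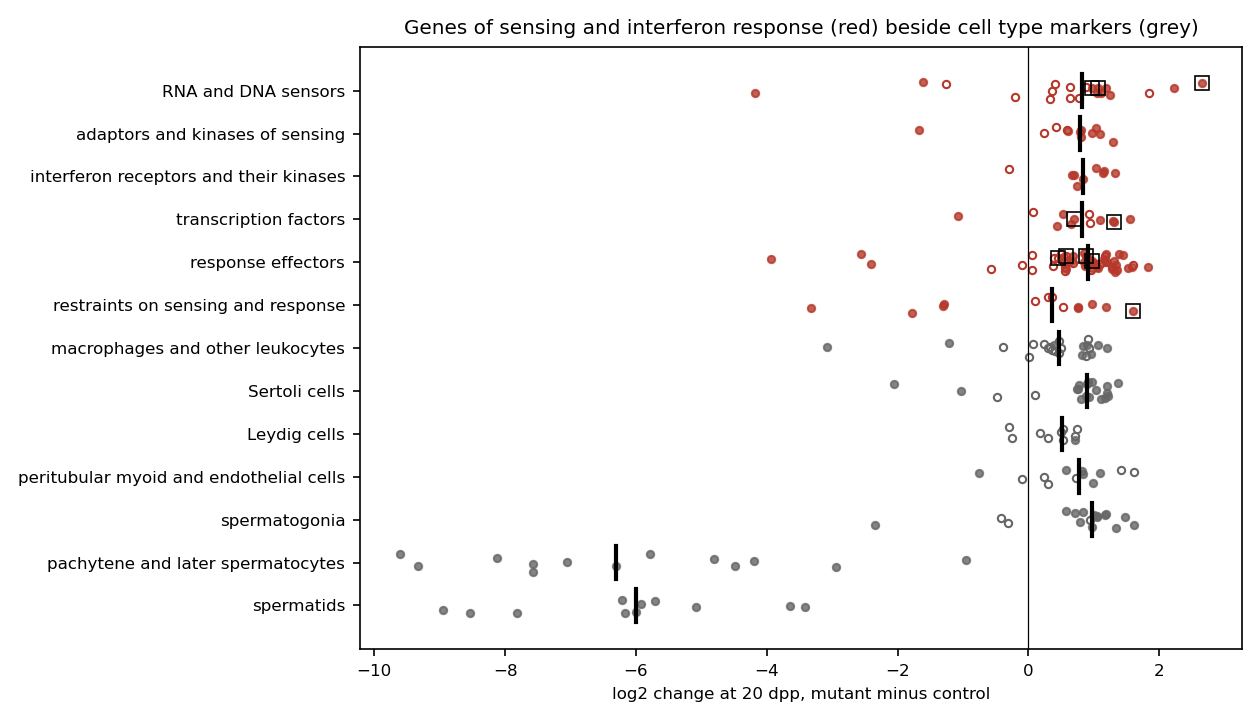
Log2 change at 20 dpp (horizontal axis) of each gene of 6 pathway lists (red) and 7 cell type marker lists (grey); filled circles passed the adjusted p of 0.05, open circles did not, black bars are list medians and black squares frame the 9 genes, with Ifih1 in 2 lists. Most pathway genes lie in the range of the Sertoli cell and spermatogonia markers, with Oas1a, Oas2, Oas1g and Xaf1 to the right of it and Dhx58, Epsti1 and Rnaseh2a far to the left.

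Levels of the 9 genes per kilobase of exon gave an order of abundance. In the controls at 20 dpp, Stat2 led with 571.7 normalised reads per kilobase, followed by Ddx58 at 212.3, Ifih1 at 175.1, Irf7 at 160.4, Isg15 at 159.7, Usp18 at 114.7, Ifit3 at 77.9, Ifit1 at 44.3 and Oas1a at 13.0. Neighbours in that order did not overlap except Ifih1 with Irf7 and Irf7 with Isg15. In the mutants Stat2 again led with 927.2, and Usp18 at 343.8 stood above Isg15 at 217.1 without overlap. There Oas1a (82.9) was above Ifit1 (69.0), with overlapping libraries, whereas the controls at 20 dpp had Ifit1 above Oas1a. At 10 dpp Oas1a was above Ifit1 in both libraries, at 43.2 against 8.9 in the control and 41.1 against 9.6 in the mutant. So it was before birth, at 49.0 against 9.0 in the control and 62.4 against 6.9 in the mutant. The top of the order was another before birth, with Ddx58 (742.0 per kilobase in the control and 721.6 in the mutant) above Stat2 (607.9 and 535.7) in both libraries.

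To see which other genes took the same course, each gene's deviations from the mean of its age over the 8 libraries were compared with the mean deviations of the 9. Among 16273 genes the nearest were Plcd1 (root mean square difference 0.020 on the log2 scale), Prss36 (0.028), Parvb (0.031), Zfp266 (0.033) and Zfp275 (0.034). None of these 5 is in the pathway lists. Nearest to Oas1a alone were Fendrr (0.110), Mid1 (0.146) and Eras (0.149). Likeness here means only that the deviations were alike in these libraries, and the 2 mutant libraries at 20 dpp weigh most in it.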

How the data were processed

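The authors deposited, for each of the 8 libraries, log2 values of genes and of repeat families. The submitters' processing notes name mm10, TopHat2 2.0.6, HTSeq 0.6.1 and Bowtie 1.0.0, with no role given. How strand and multiply mapped reads were handled is not given in the sources used here; paralogs, overlapping genes and similar families can share reads. Undoing the log2 and the pseudocount of 1 and multiplying by a factor per library gave whole read counts, within 0.01 reads, for 100% of values. The lowest count was 5 or 6 per library, so genes near silence at an age were not analysed here.

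The test for these log2 values was limma 3.58.1 under R 4.3.3 (eBayes with a trend), with genes and families in one fit and Benjamini-Hochberg adjustment over each kind, at 0.05. The fit at 20 dpp had 2 residual and 5.21 prior degrees of freedom, and that of 20 against 10 dpp had 2 and 5.69. Fold changes refer to log2(value + 1) and are understated for genes of few reads. Ratios at 16.5 dpc and 10 dpp have exact conditional binomial 95% intervals (SciPy 1.17.1). The fits and the ratio rule were tested on simulated data.

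The 9 genes and the lists were chosen with earlier results of these data known. Named besides the 9 are, by rule, the 3 genes of lowest p in each pathway list, with their paralogs, a few further pathway genes (Mavs, Mx1, Adar) and the single genes listed at 10 dpp and 16.5 dpc, which were added after their values were seen. The scales of spermatogonia and leukocyte markers were added after the data were seen.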

Additional observations from a re-analysis of the deposited data

Results flagged for a closer look

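Of the 9 genes 1 passed the test of a different genotype effect between ages, a share near the 9.29% of 16282 genes with a higher change at 20 dpp. For Oas1a the log2 difference between mutant and control was 2.72 higher at 20 dpp than at 10 dpp (limma, adjusted p = 0.0409, with 2 of 2 mutant libraries above both controls at 20 dpp and 1 library per genotype at 10 dpp). Over the alternatives that difference ran from 2.02 to 3.31 and its adjusted p from 0.0132 to 0.114. The call was lost without control replicate 2 (0.0643), without mutant replicate 2 (0.0757) and with Sertoli cell markers as the scale (0.114). Its part that comes from the change in cell composition between ages was not tested, beyond the Sertoli cell marker scale, on which the difference was 2.02.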

How the results depend on the processing

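The count of 6 genes called higher at 20 dpp was also 6 with TMM factors, other pseudocounts and no trend. It was 6 as well with voom weights, genes alone and a filter at a mean of 50 scaled reads. In these settings 22.5% to 28.3% of all genes were called higher. The count was 1, 2 and 2 with Sertoli cell, spermatogonia and leukocyte markers as the scale, beside 3.75%, 4.05% and 5.62% of all genes. With 1 library left out the median log2 change of the 9 genes ran from 0.72 to 1.25. On the 3 marker scales 8, 10 and 14 of the 109 other pathway genes were called higher. With spermatogonia markers 17 were called lower, beside 48.8% of all genes. With total gene reads 89 were called higher, beside 49.0% of all genes. Signs turned with Sertoli cell and spermatogonia markers for Isg15 (-0.17, -0.23), Ifit1 (-0.041, -0.10), L1Md_F3 (-0.32, -0.38) and MERVL-int (-0.16, -0.22), for L1Md_F with spermatogonia markers (-0.0047), for L1Md_F3 with leukocyte markers (-0.020) and with 1 library left out (-0.018 to 0.61), and for ETnERV-int with total gene reads (0.29). Of the 9 genes, the number with a higher change at 20 than at 10 dpp was 6 with total gene reads, 0 with Sertoli cell markers (1 at an unadjusted p under 0.05 in limma) and 0 to 2 with 1 library left out (unadjusted, 3 without control replicate 2 and 2 without mutant replicate 2, the fits that called 0). That difference turned negative with Sertoli cell markers for Ifit1 (-0.24), Ifit3 (-0.49) and Stat2 (-0.13), and without mutant replicate 2 for Ifit1 (-0.065 to 1.00 with 1 library left out) and Ifit3 (-0.13 to 0.58). At 10 dpp 1 gene was listed at 1.5-fold. The shares of all genes at 1.5-fold and in these fits between ages are not given here. Those counts are therefore no result about the 9 genes. The causes were not tested.

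Labels number the libraries 1 and 2 in both genotypes at 20 dpp. The numbers did not pair them (correlation of replicate differences 0.036 over 17194 genes). With the number as a replicate block 6 of the 9 genes and 59 pathway genes were called higher, beside 25.9% of all genes.

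Leaving out a library keeps 1 in its group, which is then assumed to vary like the other. Genes under 100 reads in a library, such as Oas1a in controls and Ifit1, have the widest intervals.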
